A study of Homo sapiens with 16 samples.

Results

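Collagen genes were followed through the neural differentiation of H9 cells, an established line of human embryonic stem cells. The members are all genes of the count table whose symbol is COL, a number, A and a number with nothing after it, which gave 44 of the 57736 genes. Cells were taken before differentiation (D0) and after 12, 30 and 70 days of it (D12, D30 and D70), and at each of these stages there were 2 libraries of cells treated with 40 µM Thiamet-G (TMG), which inhibits the enzyme that removes O-GlcNAc from proteins, and 2 of control cells given DMSO, the solvent. All 16 libraries come from the H9 line alone, and cells of both arms were grown on Matrigel, an extract of basement membrane, with inhibitors of BMP and TGF-β signalling (LDN-193189 and SB-431542) for neural induction. Libraries were assigned to arms by their titles. For 8 of the 16 a separate treatment tag names the other arm, and this conflict follows the replicate number: all 8 replicate 1 libraries are tagged as control and all 8 replicate 2 libraries as TMG. The column names of the count table and the sample descriptions, which carry a letter D or T for the arm, go with the titles in all 16 libraries. Differences between replicates described here would be TMG effects only if the tags were right against these other labels.

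Collagens are secreted proteins in which 3 chains wind around each other, and this triple helix needs a glycine in every triplet of residues. Fibrillar collagens assemble into the banded fibrils of skin, bone, tendon and cartilage, type IV collagen forms the sheet-like network of basement membranes, and the fibril-associated collagens with interrupted triple helices (FACIT) sit on the surface of fibrils. Neural tissue makes few fibrils, and its collagens are best known from the basement membranes of vessels and of the brain surface and from the meninges. The members comprise 11 fibrillar, 6 type IV and 10 FACIT genes, 5 genes of the beaded filament collagen VI, 3 short-chain network genes, 1 anchoring fibril gene, 2 multiplexins, 4 transmembrane collagens and 2 others. Of these, 43 passed the filter on low counts. The exception was COL6A5, a type VI chain, with 30 counts over all libraries and 0 counts in 6 of them, where 3 counts would correspond to between 0.147 and 0.291 CPM over the 16 libraries.

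The classes differ in how the helix is written in the gene. Many exons of fibrillar collagen genes are 54 bases long, which is 6 triplets of 9 bases that each begin with a glycine codon. Among canonical transcripts on GRCh37, 54-base exons made up 47% of the coding exons of the fibrillar genes, 25.6% of those of the FACIT genes and 4.05% of those of the type IV genes, against 0.689% of the coding exons of all protein-coding genes. One such exon is shown for each of 4 members that the results turn on, with the glycine codons in capitals. They are coding exon 8 of COL1A1 (chr17:48275310-48275363, minus strand), coding exon 6 of COL3A1 (chr2:189852807-189852860, plus strand), coding exon 11 of COL9A1 (chr6:70984422-70984475, minus strand) and coding exon 7 of COL4A5 (chrX:107814643-107814696, plus strand).
COL1A1: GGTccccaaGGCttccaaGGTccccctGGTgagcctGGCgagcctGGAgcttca
COL3A1: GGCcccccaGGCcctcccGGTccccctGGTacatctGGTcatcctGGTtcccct
COL9A1: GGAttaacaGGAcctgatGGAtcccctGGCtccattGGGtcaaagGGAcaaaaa
COL4A5: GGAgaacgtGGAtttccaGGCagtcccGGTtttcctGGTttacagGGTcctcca

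The 6 type IV genes lie in 3 head-to-head pairs, COL4A1 with COL4A2 on chromosome 13, COL4A3 with COL4A4 on chromosome 2 and COL4A5 with COL4A6 on the X chromosome. The canonical starts of the partners are separated by 126, 418 and 1415 bases. Stretches between the starts are shown because the partners are compared below, without any annotated exon and with matches to CCAAT and GGGCGG on either strand in capitals. For the first pair the stretch is chr13:110959505-110959604, which is 100 of the 126 bases, for the second chr2:228029170-228029339, which is the 170 of 418 bases next to COL4A3, and for the third pair chrX:107682768-107683067, which is the 300 bases next to COL4A5 and leaves most of the 1415 bases unshown, all on the plus strand.
COL4A1-COL4A2: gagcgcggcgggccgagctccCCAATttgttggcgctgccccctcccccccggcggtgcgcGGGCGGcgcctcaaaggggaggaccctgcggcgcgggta
COL4A4-COL4A3: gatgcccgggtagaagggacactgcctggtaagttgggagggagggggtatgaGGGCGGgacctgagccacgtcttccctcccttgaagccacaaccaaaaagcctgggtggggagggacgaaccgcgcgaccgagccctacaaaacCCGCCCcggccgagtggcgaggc
COL4A6-COL4A5: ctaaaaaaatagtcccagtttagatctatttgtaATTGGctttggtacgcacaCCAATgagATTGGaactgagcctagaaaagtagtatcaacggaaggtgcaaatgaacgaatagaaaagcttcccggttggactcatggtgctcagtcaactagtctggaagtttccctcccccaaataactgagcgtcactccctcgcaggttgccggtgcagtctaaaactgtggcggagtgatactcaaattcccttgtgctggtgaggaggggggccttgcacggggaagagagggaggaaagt
The first sequence has 1 match to CCAAT and 1 to GGGCGG, which occur in 20.7% and 45.6% of the same-length stretches before the starts of 19894 protein-coding genes. The second has 0 matches to CCAAT and 2 to GGGCGG, present in 28% and 54.4% of such stretches of its length, and the third has 3 matches to CCAAT and 0 to GGGCGG, present in 37.8% and 60.8%. TATAAA is in none of them, and occurs in 5.68%, 7.04% and 11% of the stretches.

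The libraries held between 10334908 and 19836878 estimated counts, and levels are given as CPM, counts scaled to one library size with TMM factors, where 1 CPM rests on about 10 counts in the smallest library. The cells lost their stem cell markers: the summed CPM of POU5F1, NANOG, LIN28A and DPPA4 was between 2448 and 2804 on D0 and between 0.948 and 2.57 on D70. The 3 libraries D30 TMG replicate 2, D70 control replicate 2 and D70 TMG replicate 2 stood apart. The summed CPM of 10 mesenchyme and fibroblast markers was 2160, 1765 and 1945 in these libraries and between 22.1 and 464 in the other 13. Of the 10 markers 6 were higher in each of these libraries than in any other, namely PRRX1, TWIST1, DCN, LUM, FOXC1 and TBX18, and the other 4 were not. PRRX1, a transcription factor of mesenchyme, had 493, 312 and 448 CPM in them and at most 20.3 CPM elsewhere, whereas PDGFRB, a receptor also carried by pericytes, was highest in D70 control replicate 1 at 259 CPM. The keratin gene KRT5, a marker of surface epithelium, had 378 and 2176 CPM in the D70 control and D70 TMG replicate 2 libraries and at most 2.53 CPM elsewhere. The D70 replicate 1 libraries instead held TTR, a marker of choroid plexus, at 9812 CPM in the control and 2913 CPM under TMG, and TTR had at most 263 CPM elsewhere. The summed CPM of 5 pigment epithelium markers on D70 was 259 and 785 in the controls and 172 and 18.9 under TMG. These markers disagreed between the controls. PMEL (107 and 598 CPM), TYR (11.4 and 98.7) and BEST1 (5.53 and 37.7) were higher in replicate 2, and RPE65 (63.7 and 1.37) and MITF (71.6 and 48.9) in replicate 1. The summed CPM of 5 neuron markers on D70 was 1102 and 472 in the controls and 1084 and 195 under TMG. In bulk RNA, more cells of a type and more RNA per cell cannot be told apart.

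Collagen mRNA took up a growing part of the libraries. All 44 genes together made up between 0.251% and 0.304% of the counts on D0, between 0.651% and 0.729% on D12, and between 0.995% and 1.25% in 3 of the 4 libraries of D30. They made up 4% of the counts in D30 TMG replicate 2, 5.54% in D70 control replicate 2 and 6.85% in D70 TMG replicate 2, but 1.21% and 0.887% in the D70 control and TMG replicate 1 libraries. Fibrillar collagens were between 18.5% and 24.7% of the collagen counts on D0, between 38.8% and 51.4% on D12, and between 82.7% and 88.2% in the 3 libraries rich in mesenchyme markers. Type IV collagens were the larger of these classes on D0, with between 26.5% and 30.1%, and were between 1.38% and 3.49% in those 3 libraries. FACIT collagens were between 2.61% and 9.1% of the collagen counts in all 16 libraries.

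**Figure D1:**
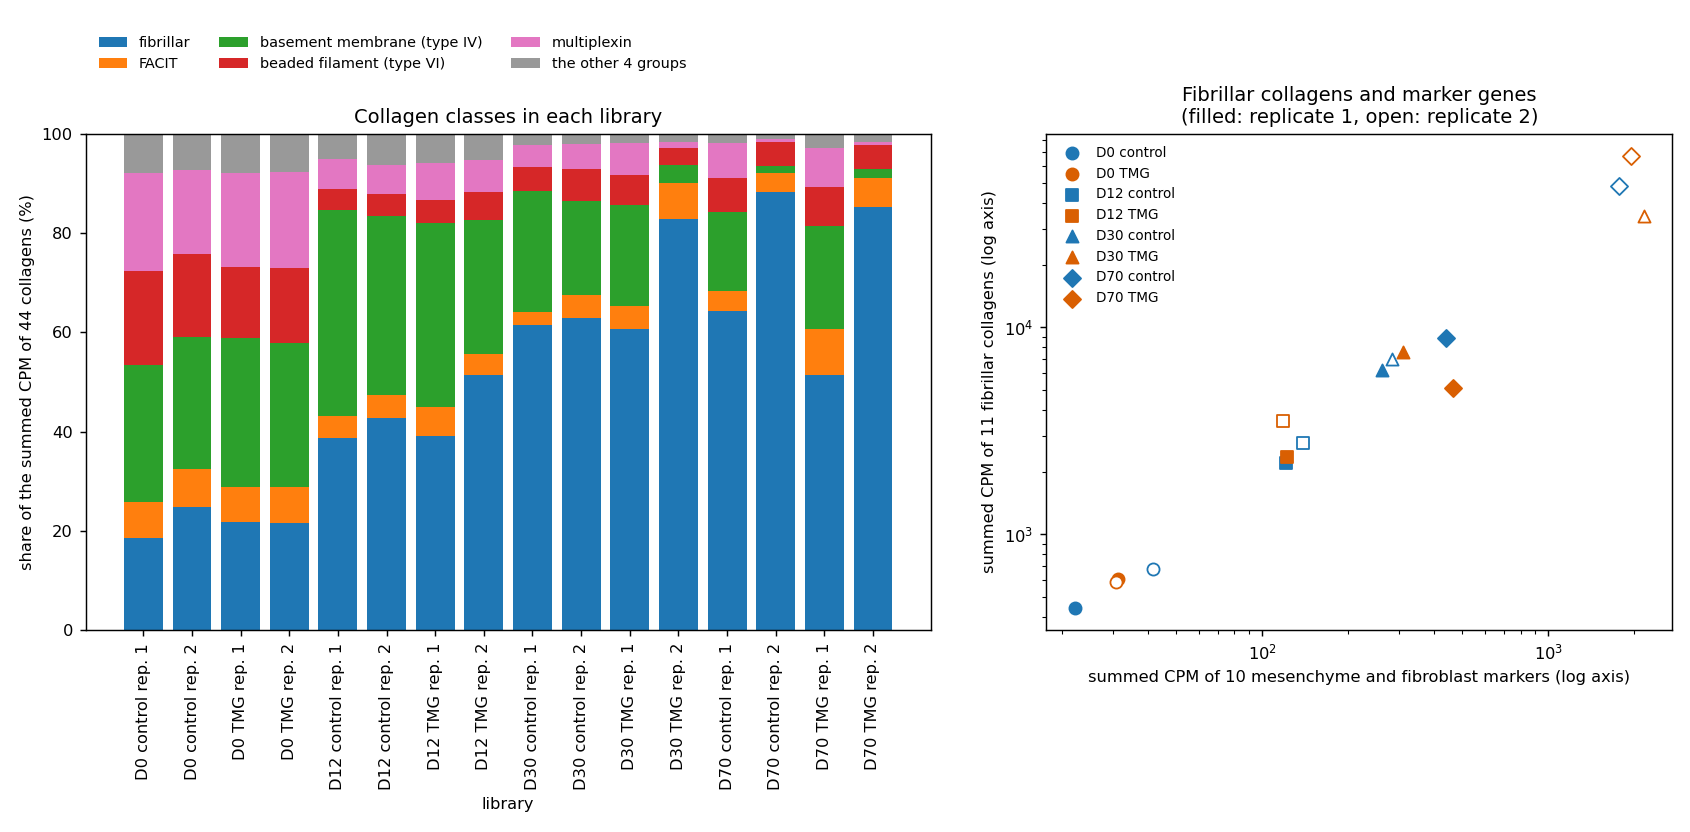
The left panel shows the share (%) of each collagen class in the summed CPM of the 44 collagens, 1 bar per library. The right panel plots the summed CPM of 11 fibrillar collagens against that of 10 mesenchyme and fibroblast markers, both on log axes, 1 point per library; the 3 libraries with 1765 to 2160 CPM of markers have between 34668 and 67070 CPM of fibrillar collagens and the others at most 8859.

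Fibrillar collagens gave the largest levels on D30 and D70. COL1A1 and COL1A2 encode the chains of type I collagen, the main collagen of skin and bone. COL1A1 had 57.3 and 72.7 CPM in the control replicates of D0, 601 and 379 on D12, later 1304 and 1993 on D30, and 2403 and 20367 on D70. In the TMG replicates it had 60.9 and 59.7, then 348 and 517, 2473 and 9815, and 1876 and 27654 CPM. Every library of D30 and D70 was thus above every library of D12, and all of D12 above all of D0. COL1A2 had 93.2 and 82.7 CPM in the control replicates of D0, 431 and 776 on D12, later 2826 and 2119 on D30, and 3632 and 12765 on D70. Under TMG the values were 107 and 96.5, 756 and 1175, 1900 and 7847, and 1019 and 16757 CPM. The D12 and D70 ranges of COL1A2 overlapped under TMG, since the lower D70 library was below the higher D12 library. Per kilobase of canonical transcript, the ratio of COL1A1 to COL1A2 ranged from 0.377 to 1.58, with a median of 0.661, and was above 1 in 6 libraries, 5 of them from D30 or D70.

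COL3A1, the chain of type III collagen of soft connective tissue, rose furthest of the fibrillar genes. It had 0.432 and 3.71 CPM in the control replicates of D0, 8.94 and 29.2 on D12, later 178 and 947 on D30, and 1279 and 10858 on D70. Under TMG it had 1.72 and 2.01, 35.8 and 128, 1064 and 10720, and 720 and 13390 CPM. The 4 stages did not overlap in the control arm. In the TMG arm D0, D12 and the later stages did not overlap, whereas D30 and D70 did.

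COL5A1, a type V chain that joins type I fibrils, had between 61 and 68.8 CPM in the 4 libraries of D0, between 96 and 169 on D12, and 371, 485, 603 and 1439 on D30 (controls first). On D70 it had 547 and 2031 CPM in the controls and 508 and 2704 under TMG. COL11A1, a chain of the type XI fibrils of cartilage that is also made outside it, was high earlier, with 30.1 and 58.3 CPM in the controls of D0, 292 and 384 on D12, later 666 and 557 on D30, and 362 and 462 on D70. Its control D12 replicates were far above D0, and its control D70 replicates overlapped D12 and were below D30. Under TMG COL11A1 had 50.2 and 44.4, 226 and 232, 462 and 1782, and 403 and 1541 CPM. COL2A1, the main cartilage collagen, which is also transcribed in the early neural tube, had 46.2 and 203 CPM in the controls of D0, 549 and 773 on D12, later 470 and 419 on D30, and 374 and 219 on D70. Its control level was therefore highest on D12. Under TMG COL2A1 had 159 and 159, 544 and 730, 659 and 1086, and 330 and 2787 CPM. The last value, in D70 TMG replicate 2, was the highest of all libraries, and the cartilage proteoglycan ACAN had 517 CPM in that library, 103 and 37.5 in the other two mesenchyme-rich libraries and at most 7.64 elsewhere.

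The other 5 fibrillar genes were lower. COL5A2 ranged from 35.5 to 1683 CPM, COL27A1 from 58.5 to 305, COL11A2 from 3.02 to 266, COL5A3 from 1.48 to 162 and COL24A1 from 1.08 to 61.2. The plot of fibrillar genes shows the spread on D70, where the replicate 2 libraries were above the replicate 1 libraries for every gene but the COL2A1 controls.

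**Figure D2:**
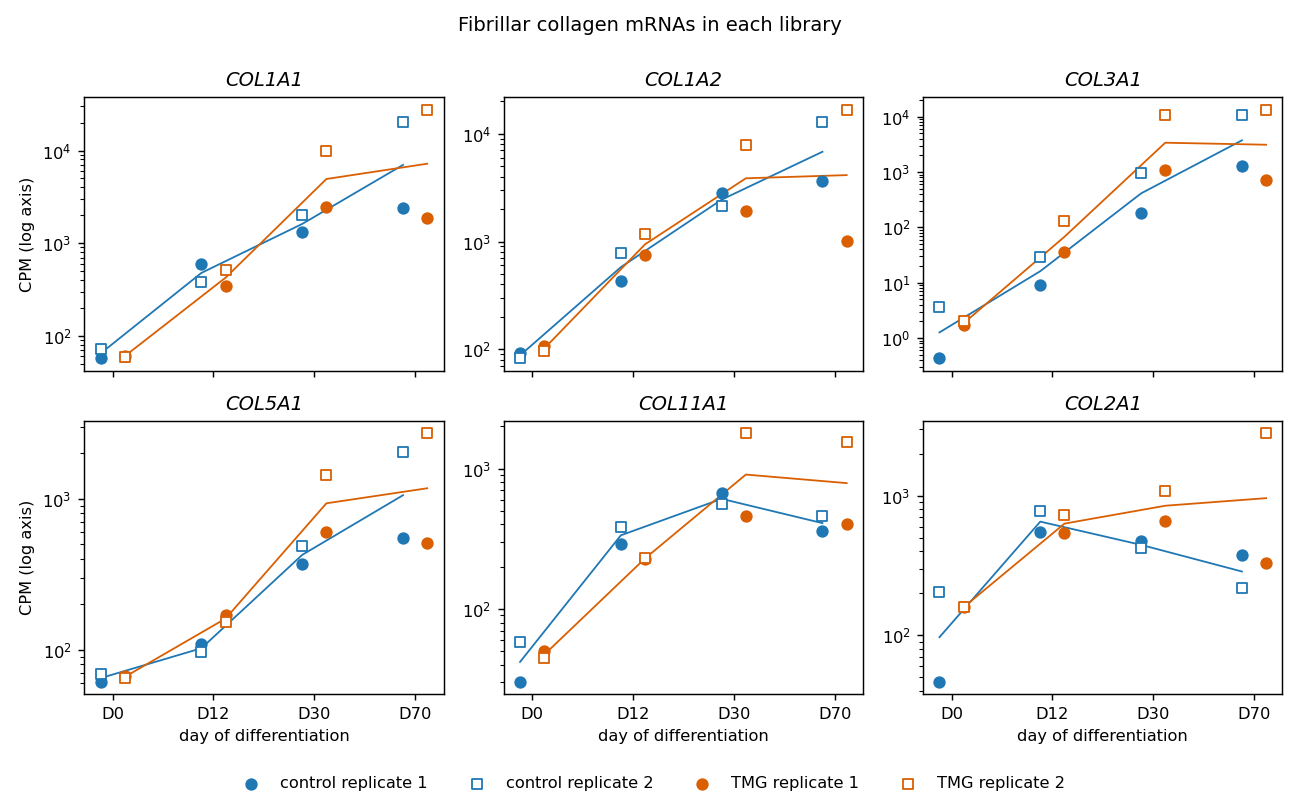
CPM (log axis) of 6 fibrillar collagen genes by day of differentiation, 1 point per library, with lines joining the geometric means of the 2 replicates. COL3A1 spans from 0.432 to 13390 CPM, and COL2A1 is highest on D12 in the controls.

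The type IV pairs had different time courses. COL4A1 and COL4A2, the chains found in nearly all basement membranes, were expressed from the start. COL4A1 had 155 and 148 CPM in the control replicates of D0, 179 and 167 on D12, later 556 and 445 on D30, and 305 and 163 on D70. Under TMG it had 202 and 185, 173 and 165, 596 and 311, and 447 and 432 CPM. It was thus between 148 and 202 CPM in all libraries of D0 and D12, and highest on D30 in the controls. COL4A2 had 216 and 237 CPM in the controls of D0, 343 and 276 on D12, later 523 and 415 on D30, and 433 and 246 on D70. Under TMG COL4A2 had 274 and 264, 307 and 271, 593 and 446, and 603 and 496 CPM. Per kilobase, COL4A1 was between 0.513 and 1.06 times COL4A2 over the 16 libraries.

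COL4A5 and COL4A6, which form networks in the kidney and in smooth muscle and epithelial basement membranes, rose early. COL4A5 had 174 and 202 CPM in the controls of D0, 821 and 773 on D12, later 646 and 613 on D30, and 1002 and 259 on D70, and under TMG 208 and 191, 808 and 612, 765 and 449, and 655 and 370 CPM. COL4A6 had 111 and 135 CPM in the controls of D0, 1026 and 1114 on D12, later 723 and 641 on D30, and 434 and 74.9 on D70. Under TMG COL4A6 had 150 and 143, 941 and 789, 590 and 255, and 290 and 94.1 CPM. Both genes were above all D0 libraries in all D12 libraries, but in the replicate 2 libraries of D70 COL4A6 was below all of D0, and COL4A5 was not. The per-kilobase ratio of COL4A5 to COL4A6 was between 1.37 and 1.6 on D0, between 0.711 and 0.879 on D12, and between 2.32 and 4.03 on D70. COL4A3 and COL4A4, known from the basement membranes of the kidney, ear and eye, were low, at 0.74 to 17.9 and 1.7 to 50.6 CPM. Their highest library was in both cases D70 TMG replicate 1, at 17.9 and 50.6 CPM, followed by D70 control replicate 1 at 7.26 and 17.9 CPM.

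**Figure D3:**
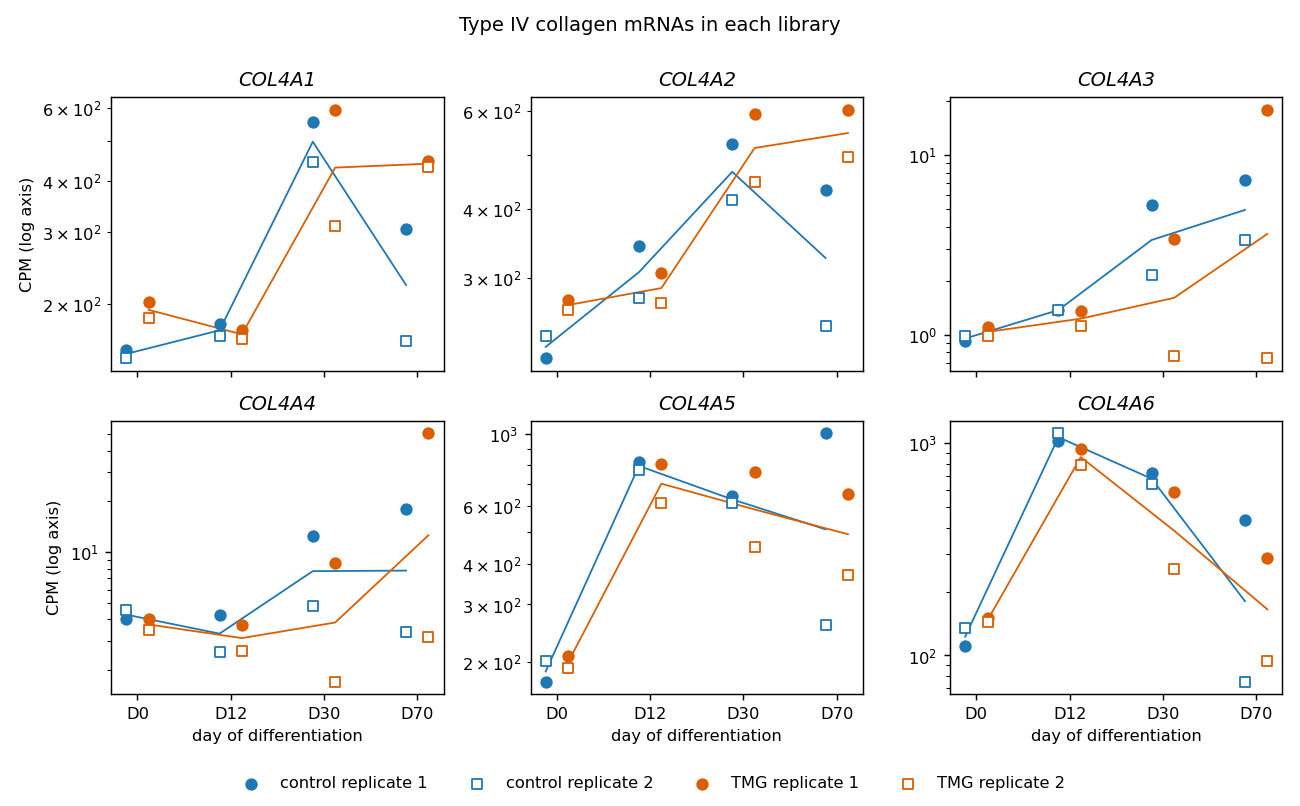
CPM (log axis) of the 6 type IV collagen genes by day of differentiation, 1 point per library, with lines joining the geometric means of the 2 replicates. COL4A5 and COL4A6 rise by D12, COL4A1 by D30, and COL4A3 and COL4A4 are highest in D70 TMG replicate 1.

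FACIT collagens differed among themselves in their time courses. COL12A1, which decorates type I fibrils, had 6.3 and 8.67 CPM in the controls of D0, 18.6 and 42.3 on D12, later 26 and 253 on D30, and 47.8 and 1281 on D70. Under TMG it had 9.33 and 10.3, 39.2 and 54.8, 125 and 2340, and 30.4 and 2652 CPM. Its levels in the 3 mesenchyme-rich libraries were at least 1281 CPM, and in the other 13 at most 253. COL16A1, found at basement membranes and in cartilage, had 14.8 and 13.9 CPM in the controls of D0, 7.96 and 7.61 on D12, later 11.6 and 21.7 on D30, and 34.3 and 342 on D70, and under TMG 11.1 and 12.1, 16.6 and 12.2, 32.9 and 216, and 52 and 704 CPM. COL19A1 was near the limit of detection, with between 1 and 4 counts in each library of D0 and between 8 and 43 counts on D70.

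Type IX collagen, which coats the type II fibrils of cartilage and is also made in the eye, is built from the products of COL9A1, COL9A2 and COL9A3. COL9A1 had 36.3 and 42.2 CPM in the controls of D0, 38.6 and 65.5 on D12, later 69.6 and 77.2 on D30, and 27.2 and 46.4 on D70. Under TMG it had 38.3 and 33.6, 55.1 and 69.2, 136 and 92.9, and 223 and 398 CPM. The TMG libraries were above both controls on D30 and, by a wider margin, on D70, where each TMG replicate was above the control of either number. COL9A2 had 9.83 and 19 CPM in the controls of D0, 63.9 and 79.9 on D12, later 50 and 65.9 on D30, and 275 and 30 on D70. Under TMG COL9A2 had 15.4 and 13.6, 87.3 and 56.5, 115 and 135, and 329 and 174 CPM. It was already above D0 in all D12 libraries. COL9A3 had 41.5 and 68.5 CPM in the controls of D0, 56.3 and 48.1 on D12, later 27.1 and 33.1 on D30, and 80.4 and 45.8 on D70, and under TMG 57.5 and 58.7, 71 and 45.2, 70 and 212, and 137 and 238 CPM. The remaining FACIT genes were COL14A1 (3.06 to 299 CPM), COL21A1 (0.246 to 109), COL22A1 (9.83 to 76.2) and COL20A1 (0.555 to 6.92).

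**Figure D4:**
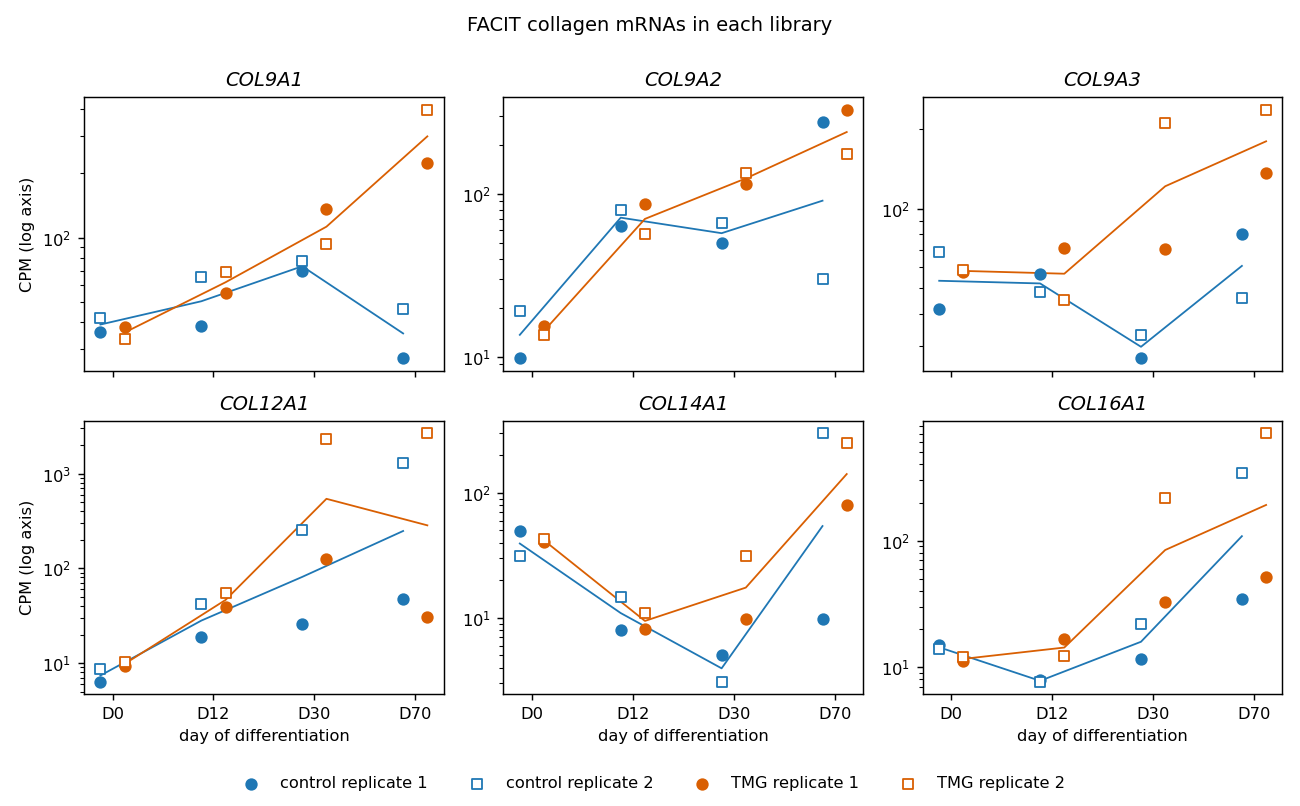
CPM (log axis) of 6 FACIT collagen genes by day of differentiation, 1 point per library, with lines joining the geometric means of the 2 replicates. On D70 COL9A1 is at 223 and 398 CPM under TMG and at 27.2 and 46.4 CPM in the controls, while COL12A1 and COL16A1 separate by replicate.

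Among the other classes, COL6A1 and COL6A2, which form the core of the type VI filament, were present throughout. COL6A1 had between 259 and 293 CPM on D0, between 151 and 225 on D12, between 316 and 427 on D30, and 523 and 940 (control) and 448 and 935 (TMG) on D70. COL6A2 had between 131 and 159 CPM on D0, between 83 and 123 on D12, between 176 and 494 on D30, and 431 and 782 (control) and 308 and 916 (TMG) on D70. Both were lower in every D12 library than in every D0 library. COL6A3, the chain that completes the type VI monomer, had at most 29.8 CPM on D0 and D12, then 3.76 and 113 in the controls of D30, 171 and 564 under TMG, and on D70 4.05 and 855 in the controls and 15.1 and 1977 under TMG. Its per-kilobase ratio to COL6A1 was between 0.00309 and 0.844. COL6A6 ranged from 1.99 to 50.5 CPM.

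COL8A1 and COL8A2, the chains of the network under endothelia and in the cornea, had at most 8.39 and 5.75 CPM on D0 and D12. On D30 COL8A1 had 49.4 and 64.2 CPM in the controls and 31.2 and 110 under TMG, and on D70 14.7 and 87.2 in the controls and 17.6 and 188 under TMG. COL8A2 had 5.73 and 7.08 CPM in the controls of D30 and 13.9 and 111 under TMG, and on D70 41.8 and 135 in the controls and 39 and 232 under TMG. COL10A1, the collagen of hypertrophic cartilage, stayed between 4.45 and 12.7 CPM. COL7A1, which forms the anchoring fibrils of skin, had 29.3 and 62.7 CPM in the controls of D0, 113 and 120 on D12, later 66.6 and 47 on D30, and 65.7 and 76.9 on D70, and between 31.1 and 101 CPM under TMG. COL18A1, the multiplexin of epithelial and vascular basement membranes, ranged from 244 to 954 CPM and was the most abundant collagen of D0 by CPM, with 472 and 461 in the controls and 530 and 519 under TMG. COL15A1, the other multiplexin, had at most 17.8 CPM except in the D70 control and TMG replicate 2 libraries, with 165 and 84.4. COL17A1, a transmembrane collagen of epithelial hemidesmosomes, had 104 and 691 CPM in those same libraries, 59.6 and 22.3 CPM in the TMG libraries of D12 against 2.75 and 5.8 in their controls, and at most 19 CPM elsewhere. The summed CPM of 4 surface epithelium markers on D12 was 40.6 and 22.9 under TMG and 6.83 and 9.96 in the controls. On D0 this sum was higher, at 152 and 104 CPM in the controls and 127 and 119 under TMG. The other transmembrane genes were COL23A1 (1.93 to 60.3 CPM), COL25A1 (5.46 to 111) and COL13A1 (1.09 to 22.8), and the remaining pair COL26A1 (61.1 to 272) and COL28A1 (0.494 to 4.04).

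The stages were compared within each arm with edgeR's quasi-likelihood test and Benjamini-Hochberg adjustment over all 24249 genes tested. From D0 to D12, 5 of the 43 collagens tested rose in the controls and 0 fell, while 6.97% of all genes rose and 9.71% fell. They were 2 fibrillar genes, COL11A1 (log2 fold change 2.93, SE 0.68, adjusted p = 0.0169) and COL5A3 (3.18, SE 0.99, adjusted p = 0.0497), the type IV pair COL4A5 (2.09, SE 0.52, adjusted p = 0.0225) and COL4A6 (3.12, SE 0.75, adjusted p = 0.019), and COL7A1 (1.34, SE 0.36, adjusted p = 0.0287). Under TMG 4 rose and 0 fell, against 7.24% and 9.19% of all genes, namely COL11A1, COL4A5, COL4A6 and COL11A2 (log2 fold change 5.60, SE 1.29, adjusted p = 0.0156). COL11A2 had 41.4 and 266 CPM in the TMG replicates of D12, and without replicate 2 its log2 fold change was 3.71 (adjusted p = 0.0824 by edgeR). That library also had 913 summed CPM of 5 neural crest markers, against 508 in D12 TMG replicate 1 and 327 and 444 in the D12 controls, and their part in the difference was not tested. The median log2 fold change over all fibrillar genes was 2.78 in the controls and 2.00 under TMG, that of the type IV genes 0.49 and 0.18, and that of the FACIT genes 0.42 and 0.55, against 0.00 and 0.04 over all genes tested. With 1 library left out, the FACIT median in the controls ranged from 0.01 (without D12 control replicate 2) to 0.55 and the type IV median under TMG from 0.06 (without D12 TMG replicate 1) to 0.29. The summed neural crest markers went from between 30.4 and 71.5 CPM on D0 to between 327 and 913 on D12. PAX3 alone went from between 1.05 and 4.67 CPM to between 217 and 375, and SOX10, TFAP2A and TFAP2B also rose. FOXD3 instead fell in the controls, from 24.8 and 61.5 to 9.83 and 17.7 CPM. Under TMG FOXD3 went from 20.4 and 20.1 to 14.2 and 67.2 CPM. The summed mesenchyme and fibroblast markers went from between 22.1 and 41.55 CPM to between 118 and 139, but their members differed. PDGFRB went from between 14.4 and 16.6 CPM to between 68.1 and 96.7, and PDGFRA from between 1.17 and 4.39 to between 16.9 and 28.4. TWIST2 fell from between 2.22 and 5.11 CPM to between 0.21 and 0.75, and DCN had at most 0.311 CPM at both stages. The part of either marker list in these medians was not tested. With 2 libraries in a group the counts of calls rested on single libraries and on the fit. At most 1 collagen was called when any 1 of the 4 libraries compared was left out, where between 3.60% and 7.79% of all genes were called. When only those 4 libraries were fitted, 22 collagens and 24.3% of all genes were called in the controls and 25 and 37.4% under TMG.

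From D12 to D30, 1 collagen rose in the controls and 0 fell, against 1.91% and 1.69% of all genes. It was COL4A1 (log2 fold change 1.53, SE 0.32, adjusted p = 0.0292), and the call was lost when any of the 4 libraries was left out. DESeq2 called 7 collagens and 12.7% of all genes there, the replicate block 11 and 13.7%, and the fit without the 3 mesenchyme-rich libraries 20 and 17.6%. Under TMG edgeR called 0 collagens, and of all genes 0.388% as higher and 0.124% as lower. At an unadjusted p under 0.05, 20 collagens were higher and 2 lower, against 7.86% and 7.15% of all genes. D30 TMG replicate 2 is 1 of the mesenchyme-rich libraries, with 2160 summed CPM of those markers against 311 in replicate 1. Their part in this comparison was not tested. DESeq2 called 14 collagens and 5.79% of all genes, and a fit with replicate number as a block 14 and 6.03%. From D30 to D70, 0 collagens were called in either arm by edgeR, where 0.305% of all genes rose and 0.0784% fell in the controls and 0.00412% rose and 0.00412% fell under TMG. At an unadjusted p under 0.05, 12 collagens were higher and 2 lower in the controls, against 10.8% and 7.58% of all genes, and 6 were higher and 1 lower under TMG, against 6.45% and 4.51%. DESeq2 called 11 collagens and 8.38% of all genes in the controls, and 2 collagens and 1.85% of all genes under TMG. With the replicate block 14 collagens and 7.72% of all genes were called in the controls, and 0 collagens and 0.264% under TMG.

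From D0 to D70, 17 collagens rose in the controls and 0 fell, against 15.0% and 14.7% of all genes, and under TMG 23 rose and 0 fell, against 14.9% and 14.1%. By class, 7 of 11 fibrillar, 1 of 6 type IV and 3 of 10 FACIT genes rose in the controls, and 9, 2 and 6 under TMG. The median log2 fold change was 3.59 for the fibrillar, 1.18 for the type IV and 2.56 for the FACIT genes in the controls and 4.61, 1.27 and 3.18 under TMG, against 0.03 and 0.01 over all genes tested. Without D70 TMG replicate 2 the TMG medians were 1.76, 1.46 and 1.43, and without D70 control replicate 2 the control medians were 3.03, 1.94 and 1.30. Without D70 control replicate 1 or D70 TMG replicate 1 the type IV median was 0.11 in the controls and 0.32 under TMG. In the controls COL3A1 rose by 11.53 (SE 2.35, adjusted p = 0.00502), COL1A1 by 7.45 (SE 1.45, adjusted p = 0.0039) and COL1A2 by 6.54 (SE 1.28, adjusted p = 0.00401) on the log2 scale. Without D70 control replicate 2 these were 9.29, 5.21 and 5.36. Leaving out a D0 control library cut the collagen calls further, to the 4 and 9 given below. COL5A1, COL5A2, COL5A3 and COL11A1 rose by between 3.22 and 4.31. Without D70 control replicate 2, COL5A2 was at 1.73 and COL5A3 at 3.18 by edgeR, and neither was called. The type IV gene that rose in the controls was COL4A5 (1.75, SE 0.52, adjusted p = 0.0272), which was at 0.47 (adjusted p = 0.395 by edgeR) without D70 control replicate 1. Under TMG those that rose were COL4A1 (1.18, SE 0.32, adjusted p = 0.0188) and COL4A2 (1.03, SE 0.27, adjusted p = 0.0156). COL9A2, COL16A1 and COL19A1 were the FACIT genes that rose in both arms, and COL9A1, COL9A3 and COL12A1 were called under TMG and not in the controls, and the test of TMG on D70 compares the arms. The calls of COL19A1 rest on 3 counts over the controls of D0, so that its fold change is not given. COL6A1, COL6A2, COL8A1, COL8A2, COL15A1 and COL17A1 also rose in both arms, and COL2A1 and COL11A2 were called under TMG. Some of the genes that rose differed widely between the D70 replicates, mostly with replicate 2 higher. COL9A2 went the other way, with 275 and 30 CPM in the controls and 329 and 174 under TMG. COL16A1 had 34.3 and 342 CPM in the controls and 52 and 704 under TMG, and COL12A1 had 30.4 and 2652 under TMG. Under TMG COL2A1 had 330 and 2787 CPM and COL11A2 10.8 and 226. COL15A1 had 5.79 and 165 CPM in the controls and 17.8 and 84.4 under TMG. COL17A1 had 6.62 and 104 CPM in the controls and 3.64 and 691 under TMG. When only the libraries compared were fitted, 9 collagens and 10.1% of all genes were called in the controls, and 5 and 7.75% under TMG. The replicate 2 libraries of D70 carry the mesenchyme markers described above. Without D70 control replicate 2 the controls gave 13 calls, where 25.9% of all genes were called, and without D70 TMG replicate 2 the TMG arm gave 18, where 26.4% were. Without D0 control replicate 1 or 2 the controls gave 4 and 9, against 15.9% and 16.7% of all genes, and without D0 TMG replicate 1 or 2 the TMG arm gave 6 and 5, against 12.3% and 12.2%. With all 3 mesenchyme-rich libraries left out, 26 collagens were called in each arm, against 39.5% of all genes in the controls and 36.8% under TMG, with D70 then represented by 1 library per arm whose spread was taken from the other groups.

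TMG was compared with the control at each stage, with arms as in the titles, to ask whether raised O-GlcNAc moved these genes. By edgeR 0 of 24249 genes passed a false discovery rate of 5% at any of the 4 stages, which is 0% of all genes, and so 0 collagens did. An unadjusted p under 0.05 was reached by 0 collagens at the first 2 stages, against 1.26% of all genes on D0 and 2.48% on D12. The D30 comparison had 8, all higher under TMG, and the D70 comparison had 7, of which 6 were higher and 1, COL20A1, lower. Over all genes tested 7.10% were higher and 4.89% lower at that p on D30, and 2.61% and 2.88% on D70. DESeq2 called 0, 0, 3 and 1 collagens at the 4 stages in order, where it called 0.0206%, 0.0454%, 3.13% and 0.296% of all genes. A fit with replicate number as a block called 2 collagens on D30, COL12A1 and COL16A1, and 1 on D70, COL9A1, where it called 0.961% and 0.00412% of all genes. With arms taken from the treatment tag, edgeR called 0 collagens on D0, D12 and D30 but 24 of 43 on D70, of which 19 were higher and 5 lower under the tagged TMG, against 6.71% and 9.22% of all genes. The titles, descriptions and column names all give the arms of the main comparison, and the tag alone gives the others. Both TMG libraries were above both controls for 10, 8, 20 and 4 of 43 collagens at the 4 stages in order, where this held for 19.7%, 17.8%, 23.1% and 9.77% of all genes. Both were below both controls for 5, 5, 3 and 3 collagens, where this held for 16.9%, 16.5%, 21.0% and 12.4% of all genes.

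On D70 COL9A1 had the lowest p of all genes tested, with a log2 fold change of 3.08 (SE 0.38, unadjusted p = 5.63e-06, adjusted p = 0.137 by edgeR's quasi-likelihood test). Its group means were 310 CPM under TMG and 36.8 CPM in the controls, and it was higher in 2 of 2 TMG libraries. Its adjusted p was 8.44e-12 by DESeq2, and by edgeR 0.000551 without the filter on low counts and 0.0294 with the replicate block. It was not called with RLE normalization, and the fit of the 4 libraries of D70 alone gave an adjusted p of 1.0. Fits that left 1 library in an arm of D70 took its spread from other groups, and their p-values are not given. With arms by the treatment tag the log2 fold change of COL9A1 was 0.83 (adjusted p = 0.573 by edgeR). D70 TMG replicate 1, with 223 CPM of COL9A1, had a summed 98 CPM of 7 cartilage markers, and D70 TMG replicate 2, with 398 CPM, had 971. The difference lay in ACAN (0.395 and 517 CPM), HAPLN1 (0.79 and 244) and MATN3 (1.42 and 82.7), while SOX9 (91.7 and 110) and CNMD (2.84 and 3.24) differed less between the libraries. Among the collagens COL9A3 was next on D70 (log2 fold change 1.57, SE 0.50, unadjusted p = 0.00926, adjusted p = 0.874 by edgeR), followed by COL4A1 (0.91, SE 0.32, unadjusted p = 0.0151, adjusted p = 0.88 by edgeR). COL9A2 had 329 and 174 CPM under TMG and 275 and 30 CPM in the controls, which overlapped.

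On D30 the collagens with the lowest p by edgeR were COL9A3 (log2 fold change 2.23, SE 0.51, unadjusted p = 0.00116, adjusted p = 0.18), COL8A2 (3.28, SE 0.99, adjusted p = 0.258) and COL25A1, a transmembrane collagen of neurons (2.62, SE 0.84, adjusted p = 0.27). DESeq2 called all 3, with adjusted p-values of 0.00273, 0.0148 and 0.0345. D30 TMG replicate 2 is 1 of the mesenchyme-rich libraries. COL8A2 had 111 CPM in it, 13.9 in the other TMG library and 5.73 and 7.08 in the controls. COL25A1 had 111 CPM in it, 11.8 in the other TMG library and 9.77 and 10.2 in the controls. Without it the log2 fold change was 1.22 for COL9A3, 1.11 for COL8A2 and 0.24 for COL25A1, and edgeR's adjusted p was 1.0 for each. COL9A3 overlaps the gene TCFL5 on the other strand, and the library kit is not stated to keep the strand, so reads of both cannot be told apart. On D12 the lowest p-values were those of COL17A1 (log2 fold change 3.26, SE 1.66), COL11A2 (1.61, SE 1.06) and COL3A1 (2.10, SE 1.57), and on D0 those of COL4A1 (0.36, SE 0.32), COL4A2 (0.25, SE 0.26) and COL10A1 (0.36, SE 0.41), and edgeR's adjusted p was 1.0 for these 6. The summed surface epithelium markers given above were also higher in the D12 TMG libraries than in the D12 controls, though below every D0 library. Their part in the COL17A1 difference was not tested. The median log2 fold change of the fibrillar, type IV and FACIT genes was 1.08, -0.42 and 2.14 on D30 and 0.52, 0.75 and 0.67 on D70, against 0.01 and -0.01 over all genes tested. These medians rested on single libraries. Without D30 TMG replicate 2 they were 0.14, 0.13 and 0.98 on D30. On D70 the fibrillar median was -1.76 without TMG replicate 2 and 2.10 without control replicate 2, the type IV median -1.10 without TMG replicate 1 and 1.40 without control replicate 1, and the FACIT median -0.49 without TMG replicate 2 and 1.87 without control replicate 2.

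Whether the TMG effect changed between stages was tested as an interaction. For D12 against D0, D30 against D12 and D70 against D30, edgeR called 0 collagens and 0 genes in all, which is 0% of the genes tested, while DESeq2 called 0, 0 and 1 collagens, and 0.112% of all genes for the last. At an unadjusted p under 0.05 there were 0, 1 and 3 collagens with a larger TMG effect at the later stage and 0, 0 and 1 with a smaller one, where 1.07%, 3.41% and 4.03% of all genes reached that p in either direction. The lowest p was that of COL9A1 for D70 against D30 (difference of log2 fold changes 2.44, SE 0.50, unadjusted p = 0.000508, adjusted p = 1.0 by edgeR).

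On D70 the collagens separated by replicate number, which is also the split that the treatment tag makes between control and TMG. Replicate number and tagged treatment cannot be told apart. In a fit with replicate number terms for each stage, 23 of 43 collagens were higher and 5 lower in replicate 2 than in replicate 1 on D70 by edgeR, against 7.60% and 10.7% of all genes. Of the fibrillar genes 8 of 11 were higher and 0 lower, of the type VI genes tested 4 of 4 were higher, of the short-chain genes 2 of 3 and of the transmembrane genes 3 of 4, whereas of the type IV genes 0 were higher and 3 of 6 lower. FACIT genes went both ways, with 5 higher and 1 lower, and of the 2 multiplexins COL15A1 was higher and COL18A1 lower. The median log2 fold change was 2.77 for the fibrillar, 2.53 for the type VI, 0.58 for the FACIT and -1.73 for the type IV genes. COL12A1 (log2 fold change 5.59, SE 0.50, adjusted p = 0.00166), COL5A1 (2.15, SE 0.23, adjusted p = 0.00221) and COL6A3 (7.35, SE 0.79, adjusted p = 0.00238) had the lowest p among those higher in replicate 2. COL4A4 (-3.20, SE 0.44, adjusted p = 0.0044), COL4A6 (-2.08, SE 0.31, adjusted p = 0.00574) and COL18A1 (-1.54, SE 0.28, adjusted p = 0.0111) had the lowest p among those lower. The replicate 2 libraries held the mesenchyme and KRT5 signal and the replicate 1 libraries the TTR signal given above, and the part of these in the collagen differences was not tested. EdgeR called 0 collagens between the replicates of the earlier stages, where an unadjusted p under 0.05 was reached by 0 on D0, 6 on D12 and 18 on D30, against 2.04%, 9.99% and 14.0% of all genes.

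**Figure D5:**
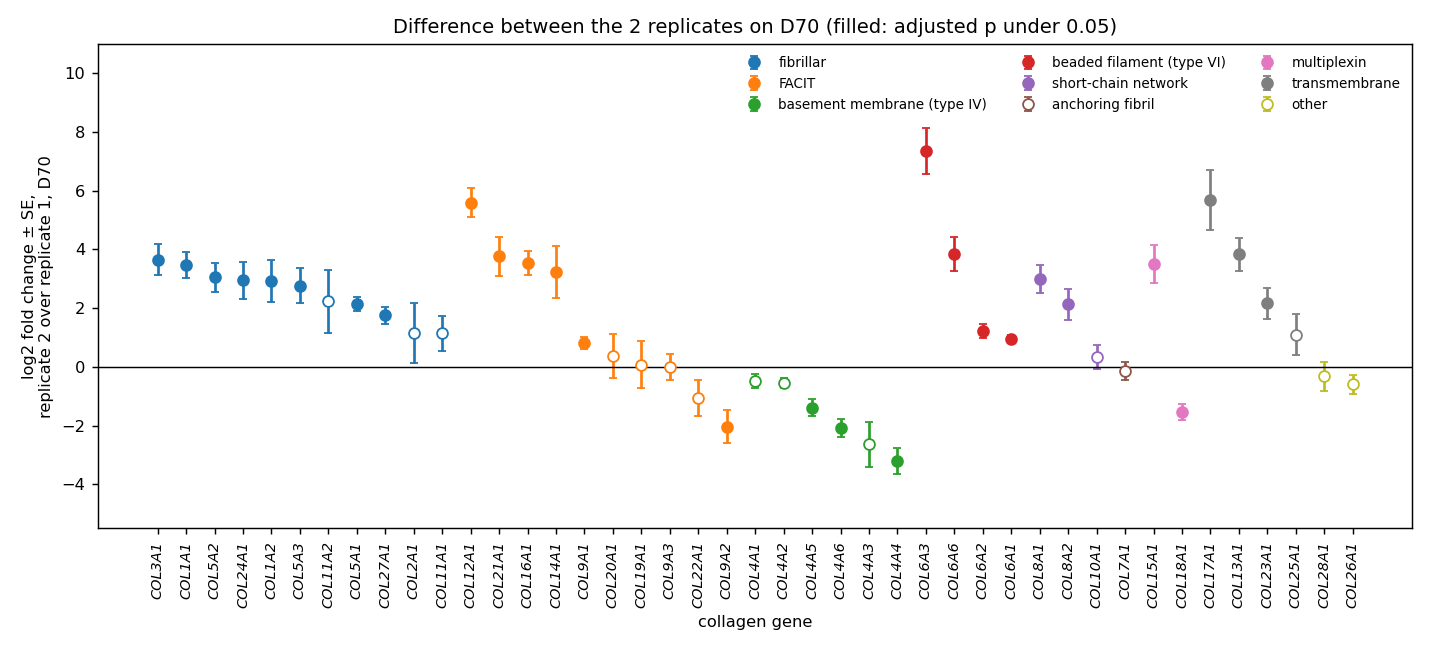
Log2 fold change of replicate 2 over replicate 1 on D70, averaged over both arms, for the 43 collagens tested, with bars of 1 SE, coloured by class and filled where the adjusted p was under 0.05. The fibrillar genes lie above 0 and the type IV genes below it.

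Genes that make, process, bind or degrade collagen were taken from 6 lists of 79 genes, of which 77 were tested. From D0 to D70 in the controls, 8 of 18 genes of collagen synthesis and folding rose and 0 fell by edgeR, where 15.0% of all genes rose and 14.7% fell. FKBP10, a folding factor, rose by 0.60 (SE 0.20, adjusted p = 0.038) and P4HA1, a prolyl hydroxylase subunit, by 2.75 (SE 0.45, adjusted p = 0.00167) on the log2 scale. Of the 13 genes of processing and crosslinking 5 rose, among them the lysyl oxidases LOX (5.66, SE 0.77, adjusted p = 0.000577) and LOXL1 (2.29, SE 0.52, adjusted p = 0.00834). Of the 9 collagen receptors tested 3 rose, including DDR2, which binds fibrillar collagen (5.93, SE 1.53, adjusted p = 0.0152), and ADGRG1, a receptor of type III collagen in the developing cortex (3.21, SE 0.55, adjusted p = 0.00195). Of the 10 breakdown genes tested 4 rose and TIMP4 fell, and those that rose included TIMP2 (2.34, SE 0.19, adjusted p = 5.66e-05) and MMP14 (2.17, SE 0.47, adjusted p = 0.00713). Of the 15 partners of type IV collagen in the basement membrane 8 rose, including LAMB1 (1.88, SE 0.25, adjusted p = 0.000465) and LAMB2 (1.62, SE 0.27, adjusted p = 0.00157), both laminin chains, and of the 12 fibril partners 8 rose, including FN1 (3.30, SE 1.05, adjusted p = 0.0359) and SPARC (4.11, SE 0.44, adjusted p = 0.000191). FN1 had 615 and 4190 CPM in the controls of D70, and without replicate 2 its log2 fold change was 1.34 (adjusted p = 0.332 by edgeR). Of the genes named here, DDR2, FKBP10, LOXL1 and MMP14 also lost their call when 1 or more of the 4 libraries was left out, at adjusted p-values of up to 0.235, and the others kept it. Under TMG 8, 6, 4, 5, 9 and 10 genes of the 6 lists rose, and 1 breakdown and 1 basement membrane gene fell, where 14.9% of all genes rose and 14.1% fell. The median log2 fold change was 0.82, 1.31, 1.12, 2.25, 1.62 and 4.22 for the 6 lists in the controls, in the order given, against 0.03 over all genes tested. Without D70 control replicate 2 these medians were 0.60, 1.5, 0.89, 1.34, 1.97 and 3.0.

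From D0 to D12 in the controls, when COL4A5 and COL4A6 rose and COL4A1 and COL4A2 were not called, 4 of the 15 basement membrane partners rose and 1 fell, against 6.97% and 9.71% of all genes. Those that rose included LAMB1 (1.65, SE 0.24, adjusted p = 0.00241) and AGRN (1.29, SE 0.38, adjusted p = 0.0401) on the log2 scale by edgeR, and 3 of the 12 fibril partners rose and 0 fell. Of the 18 synthesis genes 0 rose and 1, the lysyl hydroxylase PLOD2, fell (-1.82, SE 0.41, adjusted p = 0.0141), which is near the share of all genes. The call of AGRN was lost without any 1 of the 4 libraries and that of PLOD2 without D0 control replicate 1 or D12 control replicate 1, and LAMB1 kept its call. Between the replicates of D70, where 7.60% of all genes were higher in replicate 2 and 10.7% lower, 8 of the 12 fibril partners were higher and 0 lower, among them DCN and LUM, which are also on the list of mesenchyme markers. Of the basement membrane partners 2 were higher and 3 lower, of the breakdown genes 6 and 0, of the synthesis genes 5 and 2, of the processing genes 5 and 4 and of the receptors 3 and 0. TMG moved 0 genes of the 6 lists past a false discovery rate of 5% on D30 or D70 by edgeR, with 12 higher and 1 lower on D30 and 3 higher and 1 lower on D70 at an unadjusted p under 0.05, against the 7.10% and 4.89% and the 2.61% and 2.88% of all genes given above.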

How the data were processed

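RNA of the 16 libraries was sequenced after depletion of ribosomal RNA. As deposited, the table holds estimated counts per Ensembl gene, which the authors made by aligning reads with Bowtie2 to hg19 and counting with RSEM 1.2.12 on GRCh37.p13, with no normalization and as whole numbers. Of 57736 genes, 55501 had a symbol. The kit is not stated to keep strand, so reads of overlapping genes on opposite strands cannot be told apart, and the library kit and depletion step set the totals that CPM refer to.

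Here genes were kept by filterByExpr in edgeR 4.0.16 (minimum count 10, minimum total 15, over 8 groups), which left 24249. Group means were fitted over all 16 libraries with TMM normalization and robust dispersions (8 residual degrees of freedom), and p-values of the quasi-likelihood F-test were adjusted by Benjamini-Hochberg for each comparison at 5%. The SE of a log2 fold change was derived from its F value. Replicates were compared on D70 in a fit with replicate terms for each stage (4 residual degrees of freedom). The replicates are cultures of 1 cell line, and their chi-square per degree of freedom was between 25.5 and 159, so counting error is a small part of their spread for all but low genes.

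Genes were named by a rule: members called in any stage or TMG comparison (up to 6 per class by group mean), the 2 most abundant of each class, the 3 lowest p-values per TMG comparison and per direction between replicates, and the 2 most abundant called genes of each related list. COL4A3, COL4A4 and the cell type markers given singly were added after their values were seen. The members and lists were chosen with earlier results of these data known. Marker lists of 12 cell types were looked up, and PECAM1, an endothelial marker, had no match. Coordinates, lengths and sequences come from the GRCh37 genome and GENCODE 44 lifted to it, which is newer than the authors' annotation. Canonical transcript lengths gave CPM per kilobase. The filter and the fits by edgeR, with and without the replicate block, and by DESeq2 were tested on simulated counts. This was done only for TMG against control on D30 and D0. Alternatives were DESeq2 1.42.0, RLE normalization, no filter, a replicate block, fits of only the libraries compared, each library left out in turn and, chosen after seeing the data, the 3 libraries rich in mesenchyme markers left out and arms taken from the treatment tag. Other software was R 4.3.3, Python 3.11.15 and pandas 2.3.3.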

Additional observations from a re-analysis of the deposited data

How the results depend on the processing

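Counts of collagens called moved with the fit more than with normalization. In the order D12 over D0 in controls and under TMG, D30 over D12 in controls and under TMG, and D70 over D30 in controls, the counts were 5, 4, 1, 0 and 0 as reported. They were 13, 12, 7, 14 and 11 with DESeq2, 16, 16, 11, 14 and 14 with the replicate block, and 24, 21, 20, 11 and 10 with the 3 mesenchyme-rich libraries left out. With only the libraries compared, the first 3 were 22, 25 and 19. Without the filter they were 1, 0, 1, 1 and 0. With arms taken from the treatment tag, an alternative chosen after seeing the data, they were 14, 9, 4, 12 and 1, with 8 for D70 over D30 under TMG, 24 for TMG on D70 and 2 for the TMG effect of D70 against D30. For D70 over D0, 17 collagens were called in controls and 23 under TMG, 9 and 5 with only the libraries compared, and 26 in controls with the 3 libraries left out. DESeq2 called 2 for D70 over D30 under TMG, 1 for the TMG effect of D70 against D30, 3 for TMG on D30 and 1 for TMG on D70. The replicate block gave 2 for TMG on D30 and 1 on D70, and no filter and the 3 libraries left out each gave 1 on D70. The share of all genes called moved too. In the order above it was 22.6%, 22.4%, 12.7%, 5.79% and 8.38% with DESeq2, 28.6%, 28.9%, 13.7%, 6.03% and 7.72% with the replicate block, 33.9%, 33.3%, 17.6%, 5.51% and 10.1% with the 3 libraries left out, 24.3%, 37.4% and 13.7% for the first 3 with only the libraries compared, 7.13%, 7.23%, 1.86%, 0.526% and 0.767% without the filter, and 28.8%, 22.7%, 6.21%, 6.06% and 9.35% with arms by the tag, which gave 8.78% for D70 over D30 under TMG and 6.91% for the TMG effect of D70 against D30. As reported it was 16.7%, 16.4%, 3.60%, 0.511% and 0.384%. For D70 over D0 it was 10.1% and 7.75% with only the libraries compared. The cause of these shifts was not tested.

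Leaving out 1 library at a time gave 0 to 1 calls for D12 over D0 in each arm, 0 and 0 to 2 for D30 over D12 in controls and under TMG, 4 to 18 and 5 to 24 for D70 over D0, 0 to 2 and 0 to 5 for D70 over D30, 0 to 2 for TMG on D30, 0 to 4 on D70 and 0 to 1 for the TMG effect of D70 against D30. The share of all genes called was 4.64% to 7.79% and 3.60% to 7.21%, 0% to 0.936% and 0% to 0.779%, 15.9% to 25.9% and 12.2% to 27.4%, 0% to 0.779% and 0.0124% to 6.76%, 0% to 0.895%, 0% to 3.30% and 0% to 1.59% in the same order. An arm left with 1 library was assumed to vary like the other groups. The interaction of D12 against D0 and of D30 against D12, and TMG on D0 and D12, had 0 calls in every fit that was run.

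Of 68 single fold changes, recomputed 700 times in all, 510 recomputations kept direction and side of the threshold, 175 were no longer called, 10 were newly called and 5 reversed. COL11A2 under TMG on D12 had a log2 fold change of -0.29 without D12 TMG replicate 2 and of 2.40 without D12 TMG replicate 1. With arms by the tag, the TMG effect was -0.10 for COL4A1 and -0.46 for COL10A1 on D0, -1.15 for COL17A1 on D12 and -0.34 for COL4A1 on D70. The labels do not say that equal replicate numbers share a culture or day. Deviations of same-numbered control and TMG libraries correlated over genes at 0.0453, 0.367, 0.223 and 0.607 at the 4 stages in order. The pairing was not shared by all stages, and the block also takes up the tagged treatment, so it was kept as an alternative. Fits of only the libraries compared were not made for interactions. With 2 cultures per group and 8 residual degrees of freedom, the spread between cultures limits these tests more than depth does, except for COL6A5, COL19A1 and other genes near a few counts.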
